A study of Drosophila melanogaster with 16 samples.

Results

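The cytosolic ribosomal protein genes of Drosophila melanogaster were followed in the heads of flies that carried human wild-type α-synuclein in glia, in neurons, in both or in neither. They were taken by name, as every gene whose symbol reads RpL, RpS or RpLP followed by a digit, and 88 of the 12286 genes in the table matched. All 88 passed the filter on low values, so none was lost. The 88 comprise 79 genes for the standard proteins of the ribosome, 47 of the large and 32 of the small subunit, called here the main ribosomal protein genes. The 9 others are 6 second copies of a main gene (RpL10Aa, RpL34a, RpS5b, RpS10a, RpS15Ab and RpS19b) and 3 genes that only resemble one (RpL7-like, RpL24-like and RpLP0-like). The symbol rule leaves out sta and Rack1, which encode ribosomal proteins under other names. Every fly carried both drivers, SybQF2, a Q-system driver for neurons based on Synaptobrevin, and RepoGAL4, a GAL4 driver for glia. Control flies were SybQF2, RepoGAL4/+ and had no α-synuclein transgene. Glia flies were SybQF2, RepoGAL4/UAS-Syn, neuron flies were SybQF2, RepoGAL4, QUAS-Syn/+, and flies of the group called both were SybQF2, RepoGAL4, QUASSyn/UAS-Syn. Each sample was the RNA of heads from 6 pooled flies, 3 males and 3 females, aged 10 days, with ribosomal RNA removed before sequencing. Of 16 samples, 13 were used, 4 from the both group and 3 from each of the others, and control 4, glia 3 and neuron 4 were not analysed here. The level of α-synuclein itself was not analysed here.

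A ribosome translates messenger RNA into protein, and each of its subunits is an RNA core dressed with many proteins that are needed in equal numbers. Fly ribosomal protein genes are therefore kept at closely matched levels, and loss of 1 copy of many of them gives the Minute phenotype of slow development and thin bristles. In neurons the same proteins support translation in the cell body and in neurites, and the second copies of a few of them are used mainly in the germ line.

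Reads in genes numbered 2808960 to 4767799 per library. Values below are normalized counts, which are reads divided by a scaling factor of the library, and n is 3 for control, glia and neuron and 4 for both. All 13 neuron markers and all 8 photoreceptor markers listed for a fly head were measured, with summed levels of at least 10705 and 49077 in every library. Glia 2 held more ovary and eggshell transcripts than the other libraries and had the lowest neuron marker sum. Several of the medians and folds that rest on it are given with and without it.

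The genes lie on every chromosome arm, 22 on 3R, 19 on 2R, 18 on 2L, 14 on 3L, 14 on X and 1, RpS3A, on chromosome 4. These shares follow those of all genes: 25% of the ribosomal protein genes and 24.6% of all genes lay on 3R, and 15.9% and 15.9% on X. Many ribosomal protein genes hold a gene for a small nucleolar RNA, a guide for the modification of ribosomal RNA that is often cut from an intron. Such genes lay within 28 of the 88 (31.8%), against 80 of all annotated genes in the table (0.655%), which include those 28. RpS5a (chromosome X, 17143588 to 17148264, minus strand, BDGP6) held 14 of them and RpS7 held 7, of 74 in all. The genes were short, with a median of 909.5 exonic bases against 1870.0 for all genes in the table. Exons of 9 overlapped another gene on the same strand and those of 25 overlapped one on the opposite strand, and how reads in such overlaps were counted is not given in the sources used here.

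The main genes were among the most abundant in the head and close to each other in level. Set per kilobase of exon, so that genes can be compared, their mean over 13 libraries had a median of 2793.8 normalized counts per kilobase, against 34.3 for all 12223 genes with an annotated length. The lowest of the 79, RpS14b, still lay at the 98.0 percentile of all genes. The middle of the distribution was narrow, with quartiles of 2254 and 3453, and 74 of 79 lay within 2-fold of the median. Large-subunit genes had a median of 2883 per kilobase and small-subunit genes 2664. RpL41, which encodes a very short basic peptide, stood above all others with 13061 per kilobase, followed by RpL39 (5622), RpL23 (5521), RpL27A (5097) and RpS27A (4764). Short genes carry the least certain length correction, and the exonic length used for RpL41 was 320 bases. At the low end were RpS14b with 999.1 per kilobase, RpS19b with 1.48, RpL10Aa with 1.85, RpS10a with 10.2, RpLP0-like with 57.7 and RpS5b with 76.6. RpS14b and its neighbour RpS14a (X, 7934898 to 7935792 and 7933742 to 7934677, both on the plus strand) encode nearly the same protein, so how the reads were divided between them is uncertain.

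**Figure D1:**
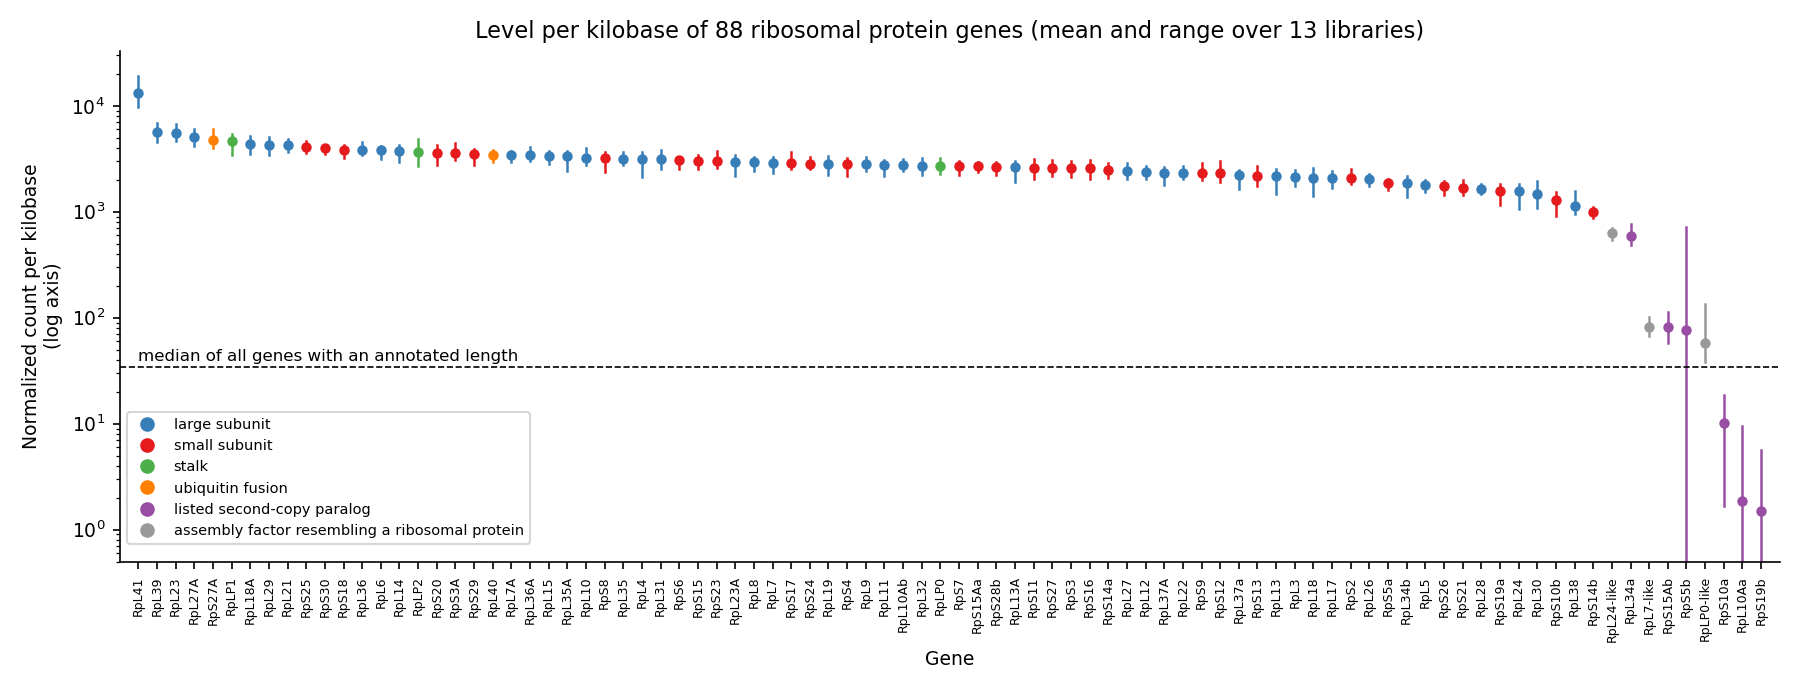
Normalized count per kilobase of exon (log axis) of the 88 genes, ordered by their mean; points are means over 13 libraries, lines run from the lowest to the highest library (to the axis where a library had 0 reads), and colours give the role. The 79 main genes run from RpL41 at 13061 down to RpS14b at 999.1, all above the dashed median of all genes at 34.3, and 4 of the 9 others span down to or below it.

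Together the 88 genes took 5.01% to 7.0% of the reads of a library. Control 1, 2 and 3 had shares of 6.20%, 6.06% and 6.08%, while glia 1, 2 and 4 had 5.31%, 7.0% and 5.01%. Neuron 1, 2 and 3 had 5.53%, 5.20% and 6.13%, while both 1 to 4 had 5.85%, 5.28%, 5.98% and 5.59%. The control libraries were nearly equal, all 4 both libraries lay below them, and glia held the highest and the lowest value of the series. With the 10 most abundant genes left out of the total, both and control overlapped, since both 1 had 6.81% and control 3 had 6.72%. Exact 95% binomial intervals reached at most 0.028 percentage points to either side, for counting error only, so reads did not limit these shares. The group means were 6.11% ± 0.078 (SD, n = 3) in control, 5.77% ± 1.08 (n = 3) in glia, 5.62% ± 0.469 (n = 3) in neuron and 5.67% ± 0.311 (n = 4) in both. Since these are whole heads, fewer cells with many ribosomes and less ribosomal protein mRNA per cell cannot be told apart. Markers of accessory gland, midgut and ovary also differed between the libraries, as given below, and their part in the shares was not tested.

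The main genes moved up and down together from library to library. Each gene's log2 level was set against its own mean over the 13 libraries, and the median of these deviations was taken over the 79. It was 0.12, 0.09 and 0.08 in control 1, 2 and 3, where 79, 72 and 65 of the 79 lay above their own mean. It was 0.01, 0.19 and -0.27 in glia 1, 2 and 4, with 45, 77 and 0 above. All 79 genes were thus below their mean in glia 4, and nearly all were above it in glia 2 of the same genotype. Neuron 1, 2 and 3 had -0.08, -0.12 and 0.04, with 12, 3 and 57 above. Both 1 to 4 had 0.10, -0.10, -0.02 and -0.02, with 70, 7, 30 and 27 above. These library medians had an SD of 0.12 (log2), and what remained of a gene's deviation after its library's median was taken off had an SD of 0.10. The SD of a main gene over the 13 libraries ran from 0.10 for RpS30 to 0.28 for RpL18, with a median of 0.15 that came to 0.07 after the library medians were taken off. The 1196 other genes in the same range of abundance had a median SD of 0.22. Counting error was small beside this, since the fewest reads of a main gene in a library were 417, a counting error of 4.9%.

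**Figure D2:**
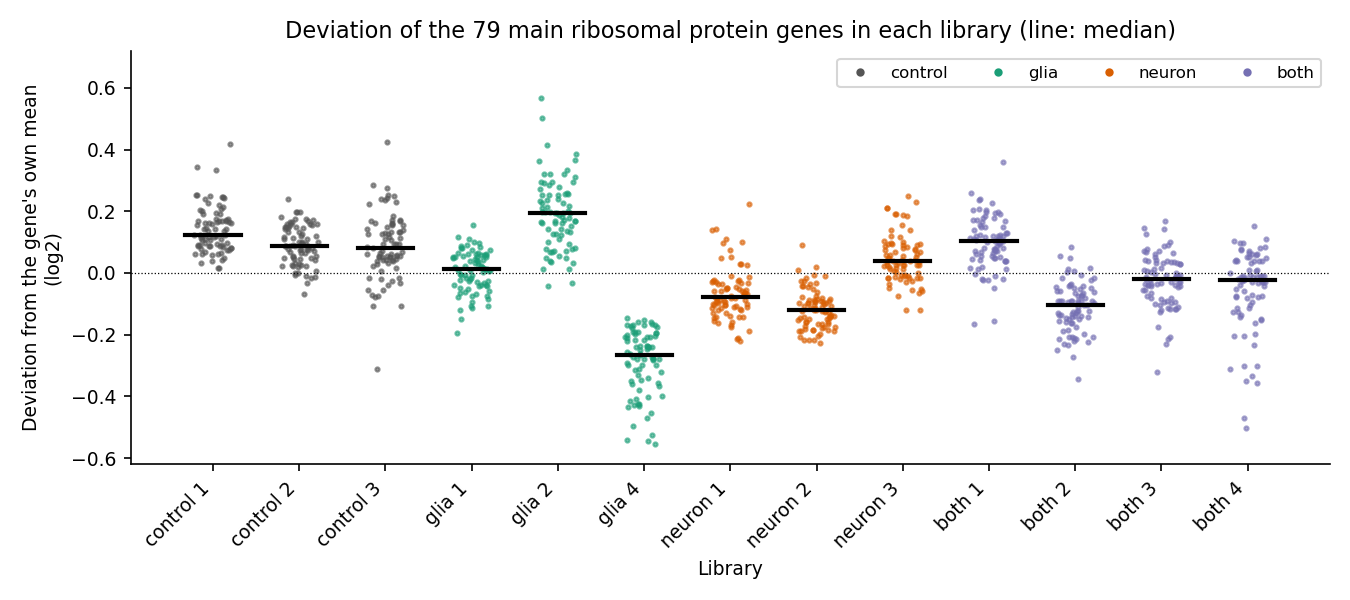
Deviation of each of the 79 main genes from its own mean over the 13 libraries (log2), by library; points are genes, black lines are medians and colours are groups. All 79 points of glia 4 lie below 0 around a median of -0.27, whereas glia 2 has a median of 0.19 and the control libraries have 0.12, 0.09 and 0.08.

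Whether α-synuclein in either cell type changed these genes was asked with limma, fitted to log2(normalized count + 1) of all tested genes and libraries, with Benjamini-Hochberg adjusted p-values and a threshold of 0.05. No ribosomal protein gene passed in any of 7 comparisons, and the smallest adjusted p was 0.0810, for RpS5b between both and glia. Among all tested genes, 0.772% passed between glia and control, 0% between neuron and control, 1.01% between both and control, 7.86% between both and glia, 0% between both and neuron, 3.24% between glia and neuron and 0.0821% in the interaction. At an unadjusted p under 0.05, the members that passed numbered 0, 2, 8, 1, 0, 2 and 0 in that order, and the shares of all tested genes were 10.1%, 12.3%, 19.5%, 27.9%, 4.24%, 21.5% and 7.3%. Each of these counts is below the share of all genes.

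The folds against control were small and mostly below 0. Their median over the 88 was -0.12 (log2) in glia, -0.16 in neuron and -0.13 in both, where the medians of all tested genes were -0.03, -0.06 and -0.05. Negative folds were seen for 80 of 88 in glia, 86 in neuron and 80 in both, and for 53.6%, 57.4% and 55.9% of all tested genes. The 3 comparisons share the same 3 control libraries, which lay close together and above the mean of the series, so their medians are not independent of each other. The subunits had like medians, with -0.14 for large and -0.12 for small in glia, -0.15 and -0.15 in neuron, and -0.13 and -0.10 in both. A median standard error of 0.13 in glia and neuron and 0.12 in both was about as large as the folds. The 95% intervals of the 79 main genes lay within -0.80 to 0.37 in glia, -0.78 to 0.55 in neuron and -0.82 to 0.36 in both.

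**Figure D3:**
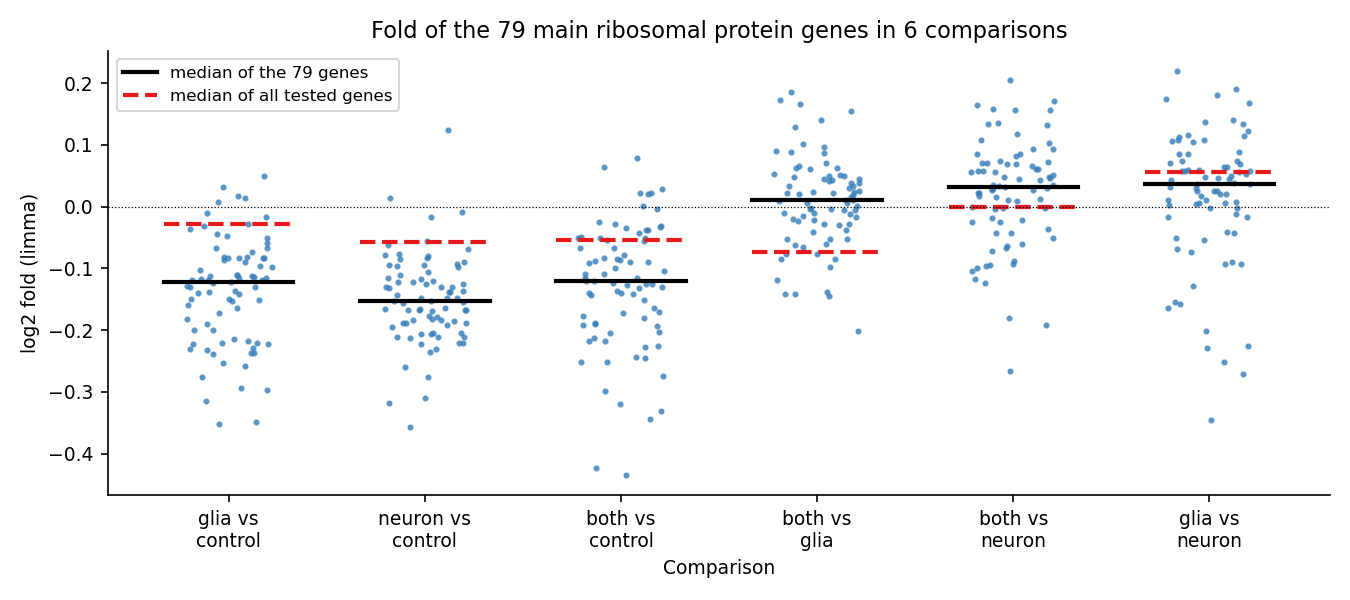
Log2 fold of the 79 main genes in the 6 comparisons of groups, from limma; points are genes, black lines are the median of the 79 and red dashed lines the median of all tested genes. Against control the medians are -0.12, -0.15 and -0.12, and between the α-synuclein groups they are 0.01, 0.03 and 0.04.

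Neuron against control was the comparison in which most main genes kept the groups apart. All 3 neuron libraries lay below all 3 control libraries for 42 of 88 genes, 25 of the large and 17 of the small subunit, and for 11.1% of all tested genes, and none lay above. With libraries centred on the median of all tested genes the count was 25 against 8.93% of all genes, and with trimmed-mean scaling it was 35 against 10.5%. RpS20, a protein of the small subunit (3R, 20822181 to 20823356, plus strand), had the smallest p. Its level was 2379, 2311 and 2289 in control 1, 2 and 3, against 1876.5, 1806 and 1947 in neuron 1, 2 and 3. The groups did not overlap, and the fold was -0.31 with a standard error of 0.13 and an adjusted p of 0.385 in limma. RpL41 followed the same order, with 5218, 4627 and 4977 in control and 3833, 3707 and 4025.5 in neuron, a fold of -0.36 with a standard error of 0.19 and an adjusted p of 0.462 in limma. Within batches 1 and 2 the median over the 88 was -0.20 and -0.21, and within batch 3 it was -0.04, where neuron 3 was nearest to its control.

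In both against control, 8 of 88 members had an unadjusted p under 0.05, all with a negative fold, where 19.5% of all tested genes had such a p and 12.8% had it with a negative fold. RpL30, a large-subunit protein (2L, 19008031 to 19009306, minus strand), had 1370.1, 1322 and 1573 in control 1, 2 and 3 and 1228, 995.1, 937.4 and 1056 in both 1 to 4. Its lowest control library was above its highest both library, and the fold was -0.43 with a standard error of 0.17 and an adjusted p of 0.198 in limma. An exon of RpL30 overlaps CG31793 on the opposite strand. RpS16, of the small subunit, averaged 2212 ± 63.7 in control and 1762 ± 157 in both (SD), a fold of -0.33 with a standard error of 0.13 and an adjusted p of 0.204 in limma. RpL41 had 3691, 3234, 3795 and 4037 in both 1 to 4, again below all control libraries, with a fold of -0.42, a standard error of 0.18 and an adjusted p of 0.230 in limma. RpL41 passed the threshold without glia 2 (adjusted p = 0.0384 in limma) and when only the compared groups were fitted (0.0430). With each library left out in turn, 0 to 860 of all tested genes passed in this comparison. The number with only the compared groups fitted is not given here. In all, 21 of 88 genes lay lower in every both library than in every control library, against 11.3% of all tested genes. With trimmed-mean scaling the count was 22 against 11.4%, and with libraries centred on the median of all tested genes it was 14 against 9.62%. The within-batch medians over the 88 were -0.04, -0.20 and -0.08 in batches 1, 2 and 3, and with batch as a block the median was -0.07.

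The glia libraries differed among themselves more than glia differed from control. The median over the 88 was -0.12 within batch 1 and 0.11 within batch 2, so the sign depended on the batch, and batches 3 and 4 held no pair. Without glia 4 the median was -0.01, without glia 2 it was -0.24, and with batch as a block it was -0.06. RpL37A, of the large subunit, had the smallest p, with 1990.1, 2069 and 2007 in control and 1828, 1903.5 and 1385.5 in glia 1, 2 and 4. Its groups did not overlap, as for 7 of 88 members and 5.11% of all tested genes, and the fold of -0.26 with a standard error of 0.13 had an adjusted p of 0.543 in limma. With trimmed-mean scaling 11 members lay lower in every glia library, against 5.39% of all tested genes, and with centring on the median it was 12 against 5.17%. RpL24, also of the large subunit, came next with a fold of -0.35 and an adjusted p of 0.551 in limma. Without glia 4 the folds of RpL37A and RpL24 were -0.12 and -0.16, and without glia 2 they were -0.34 and -0.45. RpS10a, a second copy near 0 in every library, was the third, with a fold of -1.22, a standard error of 0.63 and an adjusted p of 0.553 in limma. That fold depends on the added 1, and it was -1.94 without glia 4 and -0.81 without glia 2.

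Between the α-synuclein groups the medians over the 88 were near 0. They were 0.00 for both against glia, 0.03 for both against neuron and 0.04 for glia against neuron, beside -0.07, 0.00 and 0.06 for all tested genes. Within batches the median of both against glia was 0.07, -0.31 and 0.23 in batches 1, 2 and 4, and that of glia against neuron was 0.09 and 0.31 in batches 1 and 2. Both against neuron had 0.16, 0.00 and -0.05 in batches 1, 2 and 3. Without glia 2 the median of both against glia was 0.11 and that of glia against neuron was -0.07. RpL23 had the smallest p of both against neuron, with 2665, 2610.2 and 2960.1 in neuron and 3415.5, 2786, 3295 and 3181 in both. The 2786 of both 2 lay within the neuron range, and the fold was 0.21 with a standard error of 0.13 and an adjusted p of 1 in limma. Of the 88 genes, 5 lay higher in every both library than in every neuron library, against 3.31% of all tested genes, and with trimmed-mean scaling it was 3 against 2.84%.

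The interaction asks whether both differed from the sum of the glia and neuron effects. Its median over the 88 was 0.16 against 0.01 for all tested genes. Positive values were seen for 83 of the 88 and for 50.9% of all tested genes. All 79 main genes were positive, from 0.00 to 0.31. The contrast adds the control libraries and takes off the glia and neuron ones, so a value shared by all main genes in a library enters every one of the 79. RpL37a had the smallest p, with a value of 0.31, a standard error of 0.17 and an adjusted p of 0.781 in limma. RpS20 and RpS29 had 0.31 and 0.31, with adjusted p of 0.794 and 0.817 in limma. Without glia 4 the median over the 88 was 0.03 and the values of RpL37a, RpS20 and RpS29 were 0.16, 0.15 and 0.16. Without glia 2 the median was 0.26 and the 3 genes had 0.40, 0.45 and 0.42.

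The stalk of the large subunit, which recruits elongation factors, is built from RpLP0, RpLP1 and RpLP2. RpLP0 averaged 3966 ± 232, 3543 ± 538, 3442 ± 206 and 3482 ± 226 in control, glia, neuron and both (SD). RpLP1 averaged 3914 ± 276, 3378 ± 663, 3428 ± 122 and 3476 ± 459. Both followed the other main genes, highest in control. RpLP2 was less even, with 2905, 2208 and 1751 in control 1, 2 and 3, 2035, 2114 and 1648 in glia 1, 2 and 4, and 2787, 2261, 1924 and 1724 in both 1 to 4. The neuron libraries lay closer together, with 2539, 2317 and 2476. The range of RpLP2 within control alone covered the means of all groups, and its fold of 0.12 in neuron against control had a standard error of 0.20 (adjusted p = 0.828 in limma). RpS27A and RpL40 are made as fusions to ubiquitin, so their mRNAs also supply this protein tag. RpS27A averaged 2935 ± 72.1, 2889 ± 641, 2617 ± 179 and 2836 ± 112 in control, glia, neuron and both (SD), and RpL40 averaged 2359 ± 33, 2239 ± 278, 2227 ± 149 and 2300.4 ± 104. RpL40 was the second steadiest main gene after RpS30, and its folds against control were -0.08, -0.09 and -0.04, each with a standard error of 0.11 or 0.10.

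Summed markers of other cell types stood at different levels in the same groups. The 13 neuron markers summed to 17443 to 19754 in control, 10705 to 21660 in glia, 21958 to 27468 in neuron and 24348 to 28229.7 in both. All 13 had positive folds in neuron and in both against control, with medians of 0.42 and 0.52 (log2). The 9 glia markers measured were all positive in these comparisons too, with medians of 0.26 and 0.15, and none passed. Of 21 testis and sperm markers, 19 were negative in each. Of 7 fat body markers, 5 were negative in neuron and 5 positive in both. The 14 muscle markers summed to 64892 to 80570 in control, 43364 to 70118 in glia, 36705 to 63328 in neuron and 28718 to 47025 in both, and 13 and 14 of them had negative folds in neuron and both. The 17 accessory gland and ejaculatory bulb markers summed to 4471 to 17746 in control, 37.7 to 2104 in glia, 30.0 to 93.1 in neuron and 29.8 to 67.7 in both, and 16 of the 17 passed as lower in both against control. The 9 midgut markers summed to 4161 to 11127 in control, 15101 to 24257 in glia, 747 to 6085 in neuron and 78.9 to 9737 in both. All 9 had positive folds in glia against control, with a median of 1.60, and 2 of them passed. Without glia 2 the median was 1.65 and 1 passed. In neuron and both against control all 9 had negative folds, with medians of -2.29 and -2.07, and none passed. The 8 photoreceptor markers summed to 90121 to 99141 in control, 49077 to 96774 in glia, 114001 to 164660 in neuron and 120788 to 159714 in both. All 8 had positive folds in neuron and both against control, with medians of 0.58 and 0.67, and none passed. Without glia 2, 6 of these 8, 10 of the 13 neuron and 8 of the 14 muscle markers passed in both against control. In neuron against control without glia 2 it was 1, 1 and 0. Without glia 4 it was 0, 0 and 1 in both against control. The median folds did not change, as neither comparison holds a glia library. Among all tested genes, leaving out each library in turn gave 0 to 860 calls in both against control and 0 to 265 in neuron against control. The part of these marker differences in the ribosomal protein levels was not tested.

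RpS5b, the germ-line copy of RpS5a, was the member that varied most. It lies on 3R (14900432 to 14901563, minus strand), whereas RpS5a is on X. Control 1, 2 and 3 held 154, 34.5 and 6.6 normalized counts of RpS5b, while glia 1, 2 and 4 held 42.9, 687 and 3.3. Neuron 1, 2 and 3 held 0, 10.0 and 1.9 of it, while both 1 to 4 held 2.6, 3.4, 0 and 0.97. The neuron libraries overlapped the control ones through neuron 2 and control 3, whereas all both libraries were below all control libraries. RpS5a ran only from 2224 to 2825 over the same libraries. RpS5b made up 19.9% of the pair's reads in glia 2, 5.16% in control 1 and at most 1.57% elsewhere. No read was seen in neuron 1 and both 3, which allows a share of the pair of up to 0.108% and 0.0889% at 3 reads.

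The folds of RpS5b were large and their errors were too. It had -3.88 in both against control, with a standard error of 1.47 and an adjusted p of 0.188 in limma, and -4.42 in both against glia, with 1.47 and 0.0810. Neuron against control gave -3.45 (standard error 1.57, adjusted p = 0.401 in limma) and glia against neuron gave 3.99 (standard error 1.57, adjusted p = 0.170). These folds depend on the added 1, since several libraries were near 0. Without glia 2, glia against neuron had a fold of 2.10 and both against glia had -2.54. Without glia 4, both against glia had -6.20 and passed (adjusted p = 0.0124 in limma), as did glia against neuron with 5.77 (0.0291). With each library left out in turn, 428 to 1876 and 139 to 1192 of all tested genes passed in these comparisons. Glia against control had a fold of 0.54 (standard error 1.57, adjusted p = 0.935 in limma), which was -1.35 without glia 2 and 2.32 without glia 4. Without control 1, neuron against control had -2.37 and both against control had -2.80. With only control and both in the fit RpS5b passed, just under the threshold. The number of all tested genes that passed in that fit is not given here.

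The ovary and eggshell markers followed the same libraries. Of 20 listed, 16 were measured, and their summed level was 1515, 997 and 402 in control 1, 2 and 3, 1378, 11102 and 447 in glia 1, 2 and 4, 341 to 494 in neuron and 297 to 358 in both. All 16 were highest in glia 2. The germ-cell gene osk stood at 1598 in glia 2, at 10.6 to 191 in control and at no more than 20.9 in neuron and both, and the eggshell gene Vm26Aa was listed at 0 in every neuron and both library. The libraries with the most RpS5b, glia 2, control 1, glia 1 and control 2, had the highest ovary marker sums as well. The part of ovary RNA in the RpS5b values was not tested.

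**Figure D4:**
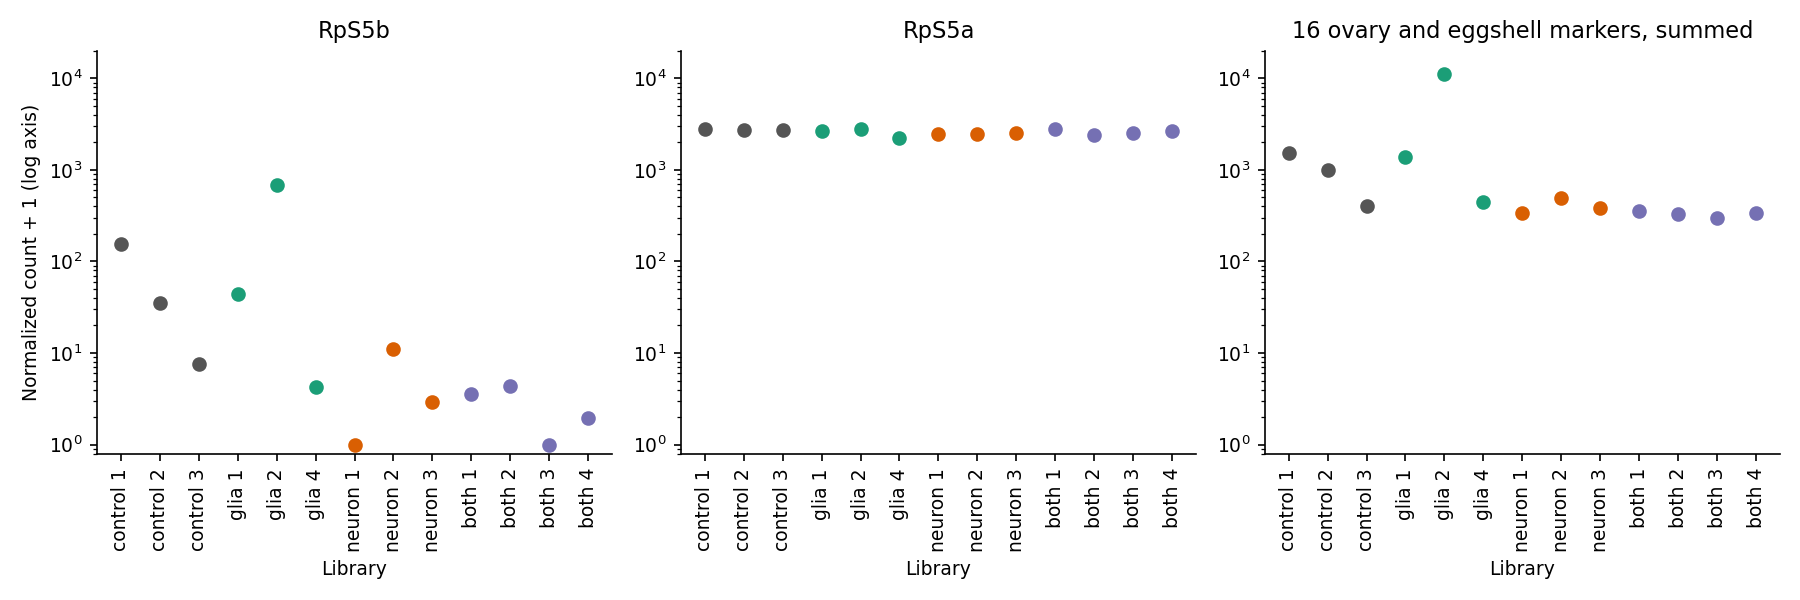
Normalized count + 1 (log axis) of RpS5b, of RpS5a and of the summed 16 ovary and eggshell markers in each of the 13 libraries; colours are groups. RpS5b reaches 687 in glia 2 and 0 in neuron 1 and both 3, RpS5a stays between 2224 and 2825, and the marker sum peaks at 11102 in glia 2.

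Of the other second copies, 3 were near 0, and the shares of RpL34a and RpS15Ab in their pairs ranged 1.42-fold and 1.86-fold over the libraries. RpL10Aa had 7.4, 3.0 and 0 in control 1, 2 and 3, 0, 4.1 and 4.3 in glia 1, 2 and 4, and no read in any neuron or both library. Its control mean was 3.80 times the limit of 3 reads over a group in neuron and 4.85 times that limit in both. Without control 1 these ratios were 1.65 and 2.11. RpS19b, a germ-line copy of RpS19a, had a mean of 2.3 in control and 0 reads in both. Its control mean was 3.13 times the limit in both, or 2.11 times without control 1. These ratios take the control mean as exact, though it rests on 9 reads for RpL10Aa and 6 for RpS19b, so they are not lower bounds. RpS10a ran from 1.0 to 11.2, at most 0.604% of its pair with RpS10b. RpL34a made up 14.7% to 20.8% of its pair with RpL34b, and RpS15Ab 1.58% to 2.93% of its pair with RpS15Aa. RpS14b made up 18.0% to 25.8% of the pair with RpS14a, with the uncertainty given above. Of 14 listed pairs, 10 had both genes measured and 4 were not analysed here.

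The genes that resemble a ribosomal protein encode assembly factors in yeast, where their counterparts act while the large subunit is built in the nucleus. RpL24-like was steady, with means of 508 ± 25.6, 499 ± 36.7, 496 ± 28.4 and 467 ± 44.1 in control, glia, neuron and both (SD). Its share of the pair with RpL24 ran from 16.1% in both 1 to 28.4% in glia 4. RpLP0-like stood at 129 in glia 2 and between 36.4 and 60.8 in every other library. Glia against neuron gave it a fold of 0.74 with a standard error of 0.30 and an adjusted p of 0.183 in limma, and without glia 2 the fold was 0.29. RpL7-like made up 3.39% to 4.80% of its pair with RpL7.

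Batch 4 held 1 glia and 1 both library, and a subset of the main genes was lowest in both of them. This subset was chosen after its values were seen and carries no test. Against the mean of glia 1 and 2, glia 4 had a median of -0.37 (log2) over the 79 main genes, from -0.67 to -0.10, where the 1196 other genes of like abundance had 0.09. Against the mean of both 1, 2 and 3, both 4 had a median of -0.01, with 40 genes below 0 and 39 above, and the other genes had -0.03. In both 4, 8 main genes (10.1%) lay below -0.3, against 6.35% of the other genes. They were RpL18, RpL24, RpL13, RpLP2, RpL4, RpL34b, RpS19a and RpL13A, and all 8 were at -0.33 or lower in glia 4. That level does not set them apart, since the median of all 79 in glia 4 was -0.37. RpL18 (3L, 7240203 to 7241351, minus strand) stood at 1802, 1632 and 1101.5 in glia 1, 2 and 4 and at 1936, 1466, 1623 and 1141 in both 1 to 4. In control it stood at 2038.5, 1678 and 1971, so both batch 4 libraries were below every other library. RpL24 was likewise lowest in glia 4 and both 4, with 1346.5 and 1400.4, where the other 11 libraries had 1654 to 2314. In all, 20 of the 79 genes were the lowest of their group in glia 4 and in both 4. All 79 lay below the mean of glia 1 and 2 in glia 4, so this count turns mainly on both 4. For each gene 1 of the 4 both libraries must be the lowest, so the count alone does not set both 4 apart. The share over all genes was not computed. Without the batch 4 libraries, RpS5b passed the threshold in both against glia and in glia against neuron, and no other member passed in any comparison. Calls among all tested genes in that fit are not given here.

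**Figure D5:**
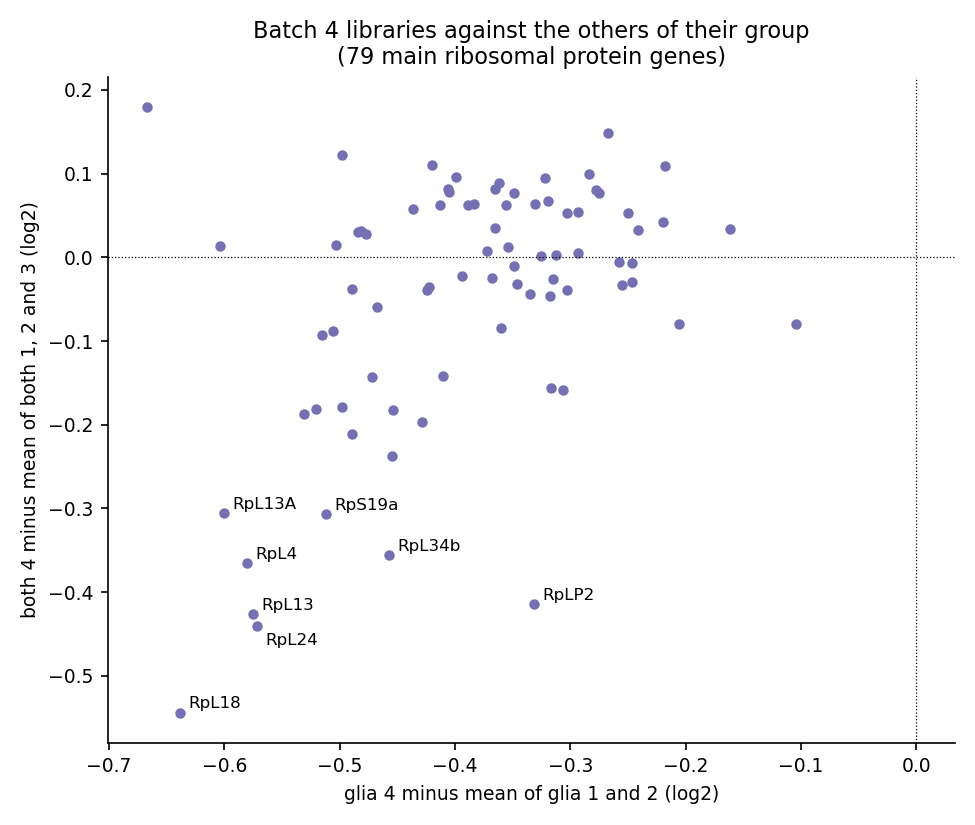
For each of the 79 main genes, the log2 level of glia 4 minus the mean of glia 1 and 2 (horizontal axis) and of both 4 minus the mean of both 1, 2 and 3 (vertical axis); the axes differ in scale. All 79 points lie left of 0, while vertically 40 lie below 0 and 39 above, and the 8 named genes lie below -0.3.

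The rest of the translation machinery is described from lists of its genes. No gene of these lists passed the threshold in any comparison with all libraries. Without glia 4, both against glia had 1 of elongation, 1 of ribosome assembly and 3 of the mitochondrial ribosome. Other such calls included an initiation factor in glia against neuron without glia 4. Without glia 2, 1 gene of ribosome assembly passed in both against control. With each library left out in turn, 428 to 1876 of all tested genes passed in both against glia. The ranges were 139 to 1192 in glia against neuron and 0 to 860 in both against control. These few list genes therefore do not set the lists apart from all genes. For these lists, values without glia 2 or glia 4 were chosen after seeing the data. The 2 ribosomal proteins outside the symbol rule, sta and Rack1, had library medians of 0.20 in glia 2 and -0.32 in glia 4, close to the 0.19 and -0.27 of the main genes. The 9 elongation and termination factors had 0.25 and -0.35 in these libraries, and their median folds against control were -0.10, -0.13 and -0.12 in glia, neuron and both. Without glia 2 the median in glia was -0.20. The 17 initiation factors had library medians of 0.28 and -0.02 in glia 2 and glia 4, and folds against control of 0.07, -0.03 and -0.03. In glia 13 of the 17 were positive. Without glia 2 the median in glia was -0.08, with 7 of 17 positive. eIF6, which keeps the large subunit from joining the small one too early, had a fold of -0.56 in neuron against control with a standard error of 0.20 and an adjusted p of 0.359 in limma. In glia against neuron it had 0.63 (adjusted p = 0.108 in limma). Without glia 4 it had 0.76 there and passed (adjusted p = 0.0455), and without glia 2 it had 0.40 (0.324).

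The 27 genes of ribosome assembly and RNA polymerase I, which makes ribosomal RNA, had a median fold in glia against control of 0.19, with 23 of 27 positive, where the ribosomal proteins had -0.12 and 46.4% of all tested genes were positive. This rested on glia 2. The library median of the 24 with a mean of at least 20 was 1.25 in glia 2 against -0.07 and -0.14 in glia 1 and 4, and at most 0.17 elsewhere. Without glia 2 the median fold was -0.17, with 4 of 27 positive. In both against glia 26 of 27 had negative folds, with a median of -0.40, where 56.3% of all tested genes were negative. Without glia 2 it was 16 of 27, with a median of -0.04. The assembly factor Rrp4, part of the RNA exosome, had a fold of -0.62 in both against control with a standard error of 0.25 and an adjusted p of 0.214 in limma. Among the 13 genes that control translation, Thor, the fly 4E-BP that holds back the cap-binding protein eIF4E, had -0.69 in both against control with a standard error of 0.21 and an adjusted p of 0.119 in limma. In both against glia it had -0.67 and an adjusted p of 0.0640, and without glia 2 it had -0.80 (adjusted p = 0.0768 in limma). The 73 mitochondrial ribosomal proteins, which form a separate ribosome, had medians of 0.06, -0.03 and -0.14 in glia, neuron and both against control. In glia 49 of the 73 were positive. Without glia 2 the median in glia was -0.02, with 33 of 73 positive. Between both and glia 64 of 73 were negative, with a median of -0.24, and mRpS30 had the smallest p (fold -0.48, standard error 0.15, adjusted p = 0.0634 in limma), where the cytosolic proteins had a median of 0.00. Without glia 2, 54 of 73 were negative with a median of -0.15, and mRpS30 had a fold of -0.37 (adjusted p = 0.211 in limma). Without glia 4 mRpS30 passed, with a fold of -0.64 (adjusted p = 0.0144 in limma).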

How the data were processed

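Heads of 13 samples were analysed, grouped by the titles and genotypes in the labels. Per the submitters' processing notes, FastQC, STAR, Salmon, featureCounts, MultiQC and DESeq2 were used with genome build BDGP6, without versions or settings. The deposited signal is named adjusted counts in the file headers. Its values equal reads over a library's scaling factor, with 1 added. After 1 was subtracted and the factor undone, 100.0% were whole within 0.01 (largest distance 2.4e-05), which gave reads per library. The authors' group means equalled the means of their samples.

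Normalized counts were the deposited values minus 1. A linear model of log2(normalized count + 1) on the 4 groups, with no batch term, was fitted by limma-trend (limma 3.58.1, R 4.3.3), which left 9 residual degrees of freedom. It covered the 12181 genes that reached a normalized count of 1 in 4 or more libraries. P-values were adjusted by Benjamini-Hochberg over these genes, with a threshold of 0.05. The standard error is the moderated one. The fit was tested on simulated data, and the outcome of that test is not given here. Fold changes understate changes of low genes. With 3 samples against 3, all groups share one estimate of the spread.

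Coordinates and exonic lengths came from an Ensembl annotation of BDGP6, which held 12223 of the table's genes (12147 by gene ID). Among the 88, 83 matched by ID and 5 by symbol. Python 3.11.15, pandas 2.3.3 and scipy 1.17.1 were used for counts and intervals, at 95% confidence, with 3 reads as the limit where no read was seen. Intervals cover counting error only, and limits cover it only in the group or library with no read.

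The labels give a batch equal to the replicate number, so the numbers pair samples. Deviations from group means of the 16 same-batch pairs had a median correlation of 0.07 over all tested genes, with 5 over 0.1. Over the 88 ribosomal protein genes the median was 0.30, with 13 of 16 over 0.1. The genes, lists and tests were chosen with earlier results of these data known. Genes were named by a rule: those past the threshold or, with none, the 3 smallest p-values of a comparison, the 5 highest and 5 lowest levels per kilobase, the 5 most variable, both genes of a pair, stalk and ubiquitin fusion genes, and up to 4 per list. Genes of batch 4 were named after their values were seen. Alternatives covered the added constant, the filter, the scaling, voom, the samples fitted, the batch block and each library left out. No sequence was used.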

Additional observations from a re-analysis of the deposited data

Results flagged for a closer look

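In the both group, 49 sets of 4 libraries were checked for a library far from the others, and 3 had one, where chance gives about 1 in 20. RpL22, of the large subunit, stood at 2954 in both 1 and between 2524 and 2588 in the other both libraries. RpL37A, also of the large subunit, stood at 1570.3 in both 4 and between 1779 and 1811 in the others. RpS15Aa, of the small subunit, stood at 2368 in both 2 and between 2593 and 2634 in the others. Over the main genes as a whole, both 1 had a library median of 0.10, both 2 of -0.10 and both 4 of -0.02 (log2), and the part of these in the values was not tested.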

How the results depend on the processing

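Over 1131 values for the ribosomal protein genes recomputed under an alternative, 1100 kept their side of the threshold or their size and 20 moved in size. Part of the 1100 could not move, since leaving out a library of an uncompared group leaves a fold as it was. The count that lost a call was 0, which was fixed in advance, as no member was called with all libraries. The other 11 were counts of members called that rose or folds that newly passed, so 1 new call can enter in both ways. Of 766 folds and median folds, none of them called with all libraries, 19 took the other sign, such as RpS5b in glia against control and the medians between the α-synuclein groups. Members called went from 0 to 2 in both against control when only the compared groups were fitted (RpS5b and RpL41). The number of all tested genes called in that fit is not given here, so these 2 are not set against all genes. Leaving out each library in turn gave 0 to 1 there, 0 to 2 in both against glia (RpS5b and RpS10a, without glia 4) and 0 to 1 in glia against neuron (RpS5b, without glia 4). Calls among all tested genes then ran from 0 to 860, 428 to 1876 and 139 to 1192 in these comparisons. The member calls therefore do not set the ribosomal protein genes apart from all genes. Without the batch 4 libraries, an alternative chosen after seeing the data, members called were 1 in both against glia and 1 in glia against neuron. Calls among all tested genes in that fit are not given here either. The leave-one-out median of both against glia ran from -0.13 to 0.11 and that of the interaction from 0.026 to 0.26, where -0.13 and 0.026 were without glia 4. With batches 1 and 2 only and the replicate block, the median of glia against neuron was 0.19. With batch as a replicate block over all libraries, 0 members were called in every comparison, and it changed no other call. The share of the library was 6.47% in control without mitochondrially encoded genes, and 6.95%, 6.47%, 6.35% and 6.43% in control, glia, neuron and both without the 10 most abundant genes. Medians against control were negative under all 25 alternatives. They ran from -0.24 to -0.01 in glia, -0.21 to -0.11 in neuron and -0.17 to -0.07 in both. These are not 25 separate checks, since leaving out a library of an uncompared group leaves a median as it was. All of them also draw on the same control libraries. The cause of each change was not tested. The planned count models were not run, whereas voom on the recovered reads was. Groups of 3 or 4 limit every test.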
